A study of Rattus norvegicus with 60 samples.

Results

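Zfp956, Stmp1 and Fam180a are 3 genes of rat chromosome 4 that were measured in 5 brain regions of a rat line and its congenic partner. Their probe sets were found by gene symbol, or by gene ID where the symbol had changed, in the array's annotation. This gave 3 of the 14217 genes that the annotation names by 1 symbol, and 4 of the 31042 probe sets on the array: 1390625_at for Zfp956, 1388441_at and 1377890_at for Stmp1, and 1392510_at for Fam180a. All 4 passed the filter on low values, which kept 18625 probe sets. The genes were chosen because they differed between the lines in these same arrays, so every difference between the lines in these 3 genes is given below as a description, with no test.

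Adult rats of 2 lines were compared, with 6 animals in each. NP is a line selected for not preferring alcohol, and the NP.P congenic line (called congenic below) has the NP background; as known of the study, though the labels do not say it, it carries a segment of chromosome 4 from the alcohol-preferring P line. Accumbens, amygdala, frontal cortex, hippocampus and striatum were dissected from each animal, and the total RNA of each region of each animal went on an array of its own, which gave 60 arrays with 6 per region and line. A value is the deposited log2 signal of a probe set in whole tissue, so fewer cells of a type and less RNA per cell cannot be told apart.

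Zfp956 encodes a zinc finger protein. Proteins of this large class bind DNA through their fingers, and many of them carry a KRAB domain that recruits the co-repressor Trim28 and through it enzymes that modify chromatin. Stmp1 encodes a very short protein of the mitochondrial inner membrane that has been linked to respiratory complex III and to mitochondrial fission. Fam180a encodes a predicted secreted protein of little known function.

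The bases before the start site of each gene are shown because the genes lie on the chromosome from which the congenic segment comes and because all 3 differed between the lines. They are RefSeq sequences of the reference rat genome GRCr8, not of the NP or P line. Each window holds the 250 bases before the start, 5′ to 3′ on the gene's own strand: chr4:78286100-78286349 on the plus strand for Zfp956, chr4:64894413-64894662 on the plus strand for Stmp1, and chr4:64975177-64975426 on the minus strand for Fam180a. Capitals mark the GC box GGGCGG and the CCAAT box CCAAT.
Zfp956: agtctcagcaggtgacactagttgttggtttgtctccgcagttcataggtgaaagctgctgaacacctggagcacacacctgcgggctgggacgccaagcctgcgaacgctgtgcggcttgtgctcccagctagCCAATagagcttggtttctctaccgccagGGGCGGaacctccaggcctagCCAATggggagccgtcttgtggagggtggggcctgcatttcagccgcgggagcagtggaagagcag
Stmp1: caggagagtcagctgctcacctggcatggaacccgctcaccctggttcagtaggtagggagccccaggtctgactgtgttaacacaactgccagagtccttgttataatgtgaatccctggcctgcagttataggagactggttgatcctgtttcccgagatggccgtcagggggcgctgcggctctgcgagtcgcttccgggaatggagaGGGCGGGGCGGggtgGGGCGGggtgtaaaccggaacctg
Fam180a: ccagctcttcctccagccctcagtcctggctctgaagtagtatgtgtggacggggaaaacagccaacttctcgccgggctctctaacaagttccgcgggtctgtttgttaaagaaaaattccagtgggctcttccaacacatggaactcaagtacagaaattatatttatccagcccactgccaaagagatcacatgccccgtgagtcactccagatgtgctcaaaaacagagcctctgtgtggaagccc

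Searched on both strands, GGGCGG stood once before Zfp956, 3 times before Stmp1 (2 of them sharing 1 base) and not before Fam180a. It occurred in 30.5% of the 33465 windows of the same length in the RefSeq table. CCAAT stood at 2 places before Zfp956 and at none before the other genes, against 34% of all windows. The TATA box TATAAA (12.9% of windows) and the E-box CACGTG (5.59%) were in none of the 3 windows. The windows of Zfp956 and Stmp1 were richer in G and C, at 60.4% each with 11 and 12 CpG pairs, than that of Fam180a, at 50.4% with 6 CpG pairs. A match is a description of the letters, not a site in use, and the table's start site for Zfp956 lies inside the span that the gene table gives for this gene.

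The 60 arrays were alike in scale, with medians from 8.23 to 8.35. In 7 of them the array stood apart, either because its median correlation with the other arrays of its labelled region was under 0.98 or because its regional profile correlated under 0.5 with that region; the other 53 arrays all matched their labelled region best. The 7 were the accumbens arrays of NP animal 8 and congenic animal 9, the amygdala arrays of NP animal 6 and congenic animal 3, and the hippocampus arrays of NP animals 8 and 11 and congenic animal 3. The accumbens array of NP animal 8 and the amygdala array of congenic animal 3 matched hippocampus best, with profile correlations of 0.651 and 0.694. The hippocampus array of NP animal 8 matched accumbens best (0.38), and that of congenic animal 3 matched amygdala best (0.738). No label was changed, and results are given with and without the 7 arrays. The regional markers were highest where the labels place them for striatum and accumbens (9 striatal genes, 1.75 and 1.02 log2 units above their mean over the regions) and for hippocampus (7 genes, 0.72). The 9 cortical genes were highest in frontal cortex (0.52), but they were also above their mean in striatum (0.34). The 6 amygdala genes were highest in frontal cortex too (0.51) and stood at 0.03 in amygdala, so they did not single out amygdala.

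Zfp956 was higher in the congenic line in every region. Its probe set had a mean of 8.52 over all arrays, near the middle of all probe sets (percentile 53.3), and ranged from 8.06 to 9.05. In accumbens, the 6 NP arrays ran from 8.06 to 8.37 with a median of 8.12, and the 6 congenic arrays from 8.55 to 8.91 with a median of 8.63. In amygdala, NP arrays ran from 8.25 to 8.51 (median 8.35) and congenic arrays from 8.54 to 9.05 (median 8.91). In hippocampus the lowest congenic array, at 8.66, was just above the highest NP array, at 8.64, with medians of 8.75 and 8.31. The lines therefore did not overlap in accumbens, amygdala or hippocampus. Over all probe sets tested, those higher in the congenic line without overlap made up 0.0644% in accumbens, 0.113% in amygdala and 0.0805% in hippocampus (0.231% in frontal cortex and 0.102% in striatum); since the gene was chosen on this contrast, nothing is read from these shares.

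In frontal cortex the Zfp956 values of the lines overlapped slightly, with NP from 8.24 to 8.48 (median 8.34) and congenic from 8.44 to 8.80 (median 8.62). Striatum was similar, with NP from 8.28 to 8.62 (median 8.35) and congenic from 8.51 to 8.84 (median 8.68). Averaged over the 5 regions of each animal, the 6 NP rats lay between 8.30 and 8.33 and the 6 congenic rats between 8.58 and 8.82. The gap between the lines was 0.25, and the congenic rats were more spread out (SD 0.08) than the NP rats (SD 0.01). The difference of the means was 0.39 ± 0.03 (log2, SE, n = 6 rats per line), a 1.31-fold higher signal in the congenic line. It was 0.40 ± 0.03 without the 7 arrays. Zfp956 and Fam180a had 1 probe set each. Whether the probes of any of the 4 sets match the sequences of both lines alike was not tested.

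The difference in Zfp956 was 0.48 ± 0.08 in accumbens, 0.49 ± 0.08 in amygdala and 0.44 ± 0.08 in hippocampus. It was smaller in value in striatum, at 0.29 ± 0.06, and in frontal cortex, at 0.26 ± 0.07. Whether it varied between regions was tested as an interaction of line and region, which the choice of genes did not use. With all arrays limma gave the interaction an adjusted p of 0.998 (0.114 unadjusted); over the 18625 probe sets limma called 0 (0%), and 726 (3.90%) were under 0.05 before adjustment. Without the 7 arrays the unadjusted p of Zfp956 was 0.0172 and its adjusted p was 0.351, with 2 probe sets called and 2006 under 0.05 unadjusted.

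**Figure D1:**
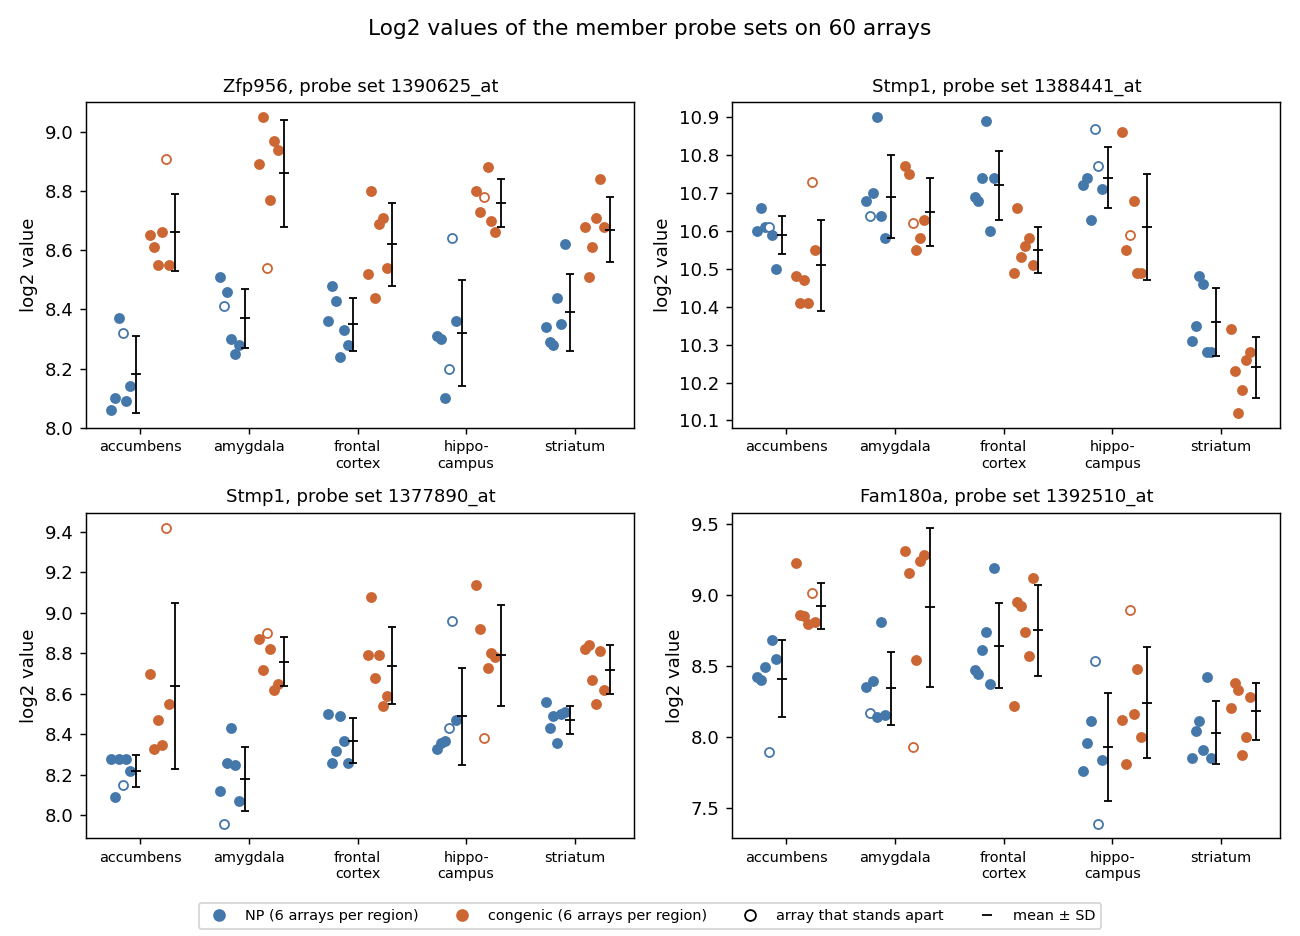
Log2 values of the 4 probe sets on the 60 arrays, by region (horizontal axis) and line; points are arrays, open points are the 7 arrays that stand apart, and bars are means ± SD of 6 arrays. Zfp956 in congenic rats lies above NP without overlap in 3 of 5 regions, Stmp1 probe set 1388441_at is lowest in striatum in both lines, and Fam180a is low in hippocampus and striatum.

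Stmp1 gave opposite directions on its 2 probe sets. Probe set 1377890_at, with a mean of 8.54, was higher in the congenic line in all 5 regions, and probe set 1388441_at, with a mean of 10.57, was lower in value in all 5. Over all probe sets tested, 3.33% had a higher mean in the congenic line in all 5 regions and 2.65% a lower one. The gene was chosen on this contrast, so nothing is read from these shares. Levels of different probe sets are not compared here. The gene table also lists a gene named Stmp1l1, and whether the probes of either set match it was not tested.

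On 1377890_at in accumbens, NP arrays ran from 8.09 to 8.28 (median 8.25) and congenic arrays from 8.33 to 9.42 (median 8.51). The highest of these, 9.42, was the array of congenic animal 9 that stands apart; without it the congenic arrays ended at 8.70. In amygdala the lines were well separated, NP from 7.96 to 8.43 (median 8.19) and congenic from 8.62 to 8.90 (median 8.77). In frontal cortex NP ended at 8.50 (lowest 8.26, median 8.34) and congenic began at 8.54 (median 8.73, highest 9.08). The values overlapped in hippocampus, where NP ran from 8.33 to 8.96 (median 8.40) and congenic from 8.38 to 9.14 (median 8.79). Both ends of that overlap, the NP array at 8.96 and the congenic array at 8.38, belong to arrays that stand apart. In striatum the lines touched, with NP from 8.36 to 8.56 (median 8.49) and congenic from 8.55 to 8.84 (median 8.74).

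The lines did not overlap on 1377890_at in 3 of 5 regions (accumbens, amygdala and frontal cortex), and in 4 of 5 without the 7 arrays. Zfp956 also had 3 such regions, and 4 probe sets of all those tested (0.0215%) had at least 3 with the congenic line higher. That share was taken with all arrays, and since this contrast chose the genes, nothing is read from it. The animal means on 1377890_at lay from 8.22 to 8.47 in NP and from 8.62 to 8.86 in congenic rats, and the difference was 0.38 ± 0.05 (log2, SE, n = 6 per line), or 1.31-fold. It was 0.36 ± 0.04 without the 7 arrays. By region it was largest in value in amygdala, at 0.58 ± 0.08, then 0.42 ± 0.16 in accumbens and 0.38 ± 0.08 in frontal cortex, and smaller in hippocampus (0.30 ± 0.13) and striatum (0.24 ± 0.06). Accumbens and hippocampus moved when the 7 arrays were left out: accumbens to 0.25 ± 0.07 and hippocampus to 0.49 ± 0.08. The interaction had an unadjusted p of 0.263 (adjusted p 0.998, limma), and 0.0209 (adjusted p 0.372) without them.

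On 1388441_at, the brighter probe set (percentile 84 of all probe set means), the lines overlapped in every region. Frontal cortex came nearest to a separation, with NP from 10.60 to 10.89 (median 10.72) and congenic from 10.49 to 10.66 (median 10.54). In striatum NP ran from 10.28 to 10.48 (median 10.33) and congenic from 10.12 to 10.34 (median 10.25). Accumbens medians were 10.60 in NP and 10.47 in congenic rats, hippocampus medians 10.73 and 10.57, and amygdala medians 10.66 and 10.62. The animal means also overlapped, from 10.56 to 10.75 in NP and from 10.46 to 10.59 in congenic rats. The difference, congenic minus NP, was -0.11 ± 0.03 (log2, SE, n = 6 per line), a ratio of 0.927, and -0.13 ± 0.04 without the 7 arrays. It ran from -0.17 ± 0.05 in frontal cortex to -0.04 ± 0.06 in amygdala, and the interaction had an unadjusted p of 0.475 (adjusted p 0.998, limma).

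Fam180a was higher in value in the congenic line in every region. Within regions its arrays were more spread out than those of the other probe sets, except in congenic accumbens (SD 0.16, against 0.41 on Stmp1 1377890_at). In accumbens, NP arrays ran from 7.89 to 8.68 (median 8.45) and congenic arrays from 8.79 to 9.22 (median 8.85), with no overlap. In amygdala, NP ran from 8.14 to 8.81 (median 8.26) and congenic from 7.93 to 9.31 (median 9.20). The single congenic amygdala array at 7.93 is that of animal 3, which stands apart; the next lowest of the group without the 7 arrays was 8.54. Frontal cortex overlapped broadly, with NP from 8.37 to 9.19 (median 8.54) and congenic from 8.22 to 9.12 (median 8.83). In hippocampus NP ran from 7.39 to 8.53 (median 7.90) and congenic from 7.81 to 8.89 (median 8.14), and in striatum NP from 7.85 to 8.42 (median 7.98) and congenic from 7.87 to 8.38 (median 8.24). Accumbens was thus the 1 region of 5 without overlap, with or without the 7 arrays.

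The animal means of Fam180a lay from 8.17 to 8.34 in NP and from 8.42 to 8.70 in congenic rats, a gap of 0.08. The difference was 0.33 ± 0.05 (log2, SE, n = 6 per line), or 1.26-fold, and 0.31 ± 0.05 without the 7 arrays. It was 0.52 ± 0.12 in accumbens and 0.57 ± 0.22 in amygdala, where it rose in value to 0.74 ± 0.15 without them. It was 0.31 ± 0.20 in hippocampus, 0.15 ± 0.10 in striatum and 0.12 ± 0.15 in frontal cortex. The interaction had an unadjusted p of 0.351 (adjusted p 0.998, limma) with all arrays and 0.0174 (adjusted p 0.351) without the 7. For the animal means, 3 of the 4 probe sets (Zfp956, 1377890_at and Fam180a) did not overlap between the lines, against 0.156% of all probe sets higher and 0.172% lower in the congenic line without overlap; the contrast chose the genes, and nothing is read from this.

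Animals 1 to 8 and 9 to 12 each held both lines. Zfp956 differed by 0.38 among animals 1 to 8 and by 0.42 among animals 9 to 12, and Fam180a by 0.32 and 0.35. For Stmp1 the values were 0.40 and 0.35 on 1377890_at, and -0.14 and -0.06 on 1388441_at. Leaving out each animal in turn gave 0.37 to 0.42 for Zfp956, 0.36 to 0.41 for 1377890_at, -0.12 to -0.085 for 1388441_at and 0.31 to 0.37 for Fam180a. With each region left out of the mean, Zfp956 stayed between 0.37 and 0.42 and 1377890_at between 0.34 and 0.42. In the same fits 1388441_at stayed between -0.13 and -0.09, and Fam180a between 0.27 and 0.39. Since this contrast chose the genes, nothing is read from these ranges.

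**Figure D2:**
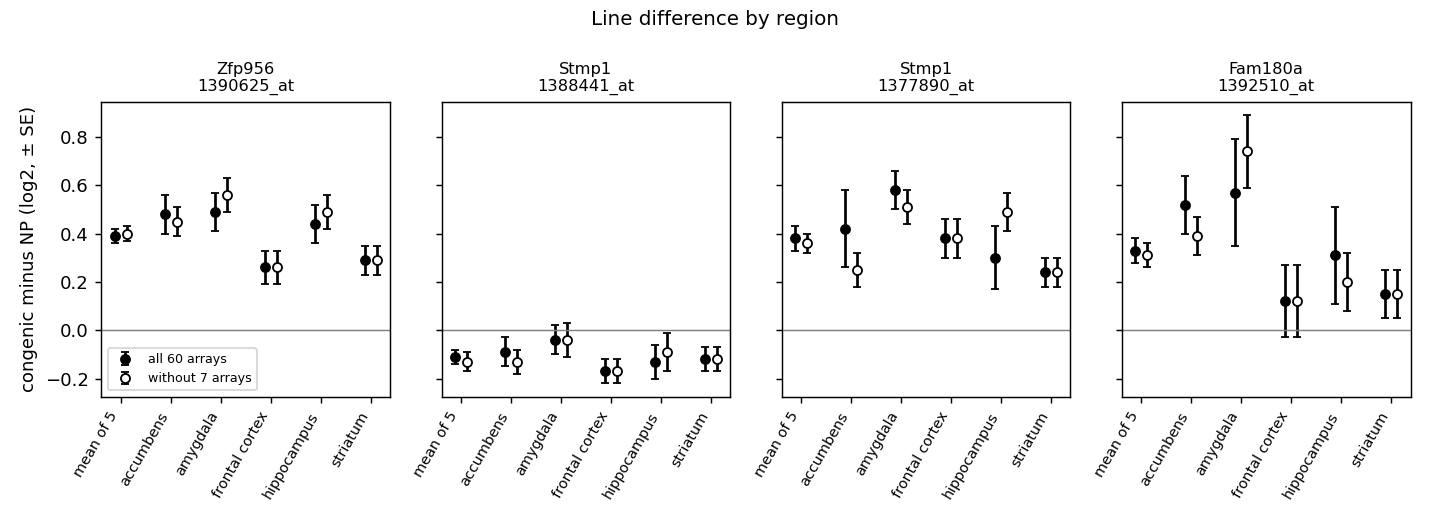
Congenic minus NP (log2, ± SE) for each probe set, as the mean of the 5 regions and by region, with all 60 arrays (filled) and without the 7 arrays that stand apart (open). Zfp956, Stmp1 1377890_at and Fam180a lie above 0 throughout, with means of 0.39, 0.38 and 0.33, and Stmp1 1388441_at lies below it at -0.11.

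Differences between regions were not used to choose the genes and were tested with each animal as a block, since every animal gave all 5 regions. Across all probe sets, 93.3% were called for a regional difference at an adjusted p under 0.05 (limma F test), so a call here is the usual case. Of the 4 probe sets 3 were called: Stmp1 1388441_at (adjusted p = 3.54e-13), Fam180a (9.15e-06) and Zfp956 (0.0213). Stmp1 1377890_at had an adjusted p of 0.0648, and 0.0393 after quantile normalisation. Without the 7 arrays all 4 were called, against 97.1% of all probe sets, and 1377890_at had an adjusted p of 9.71e-05. The call of Zfp956 was lost without animal 5 (adjusted p 0.0737) and without animal 10 (0.0697), and that of 1377890_at was gained without animal 3 (0.0217) or animal 9 (0.00100).

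Stmp1 1388441_at was lowest in striatum. Over both lines the mean was 10.30 ± 0.10 (SD, n = 12 rats) there, 10.55 ± 0.10 in accumbens, 10.64 ± 0.12 in frontal cortex, 10.67 ± 0.10 in amygdala and 10.68 ± 0.13 in hippocampus. Striatum lay below the mean of the other 4 regions by -0.34 ± 0.03 (log2, SE; adjusted p = 5.24e-14, limma) and was lower in all 12 rats; 69.6% of all probe sets were called for striatum. The set was also called as higher in hippocampus (0.14 ± 0.03, adjusted p = 1.13e-04; 54.3% of all probe sets called), amygdala (0.13 ± 0.03, 3.25e-04; 47.8%) and frontal cortex (0.09 ± 0.03, 0.00700; 61.3%). Accumbens was not called (-0.02 ± 0.03, adjusted p = 0.584; 62.4%), but quantile normalisation of the arrays turned it to 0.098 with an adjusted p of 0.00195. The same normalisation ended the calls in hippocampus (0.063, 0.0513) and frontal cortex (0.0049, 0.891), and kept those in striatum (-0.23, 2.73e-10) and amygdala (0.069, 0.0368).

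In the order of the regions, hippocampus, amygdala and frontal cortex did not differ beyond their spread on 1388441_at. Hippocampus exceeded amygdala by 0.01 (95% interval -0.07 to 0.08) and amygdala exceeded frontal cortex by 0.03 (-0.04 to 0.10), pairs for which 25.7% and 45.4% of all probe sets were called. Frontal cortex exceeded accumbens by 0.09 (adjusted p = 0.0354, limma; 65.8% of all probe sets called). That call was lost when any of animals 2, 4, 5, 7, 8 and 12 was left out, with adjusted p from 0.0563 to 0.111, and quantile normalisation turned the difference to -0.074 (0.0575). Accumbens exceeded striatum by 0.25 ± 0.04 (adjusted p = 1.18e-07; 55.5% called), in 12 of 12 rats. Hippocampus exceeded striatum by 0.38 ± 0.04 (2.13e-12; 68.6% called), also in every rat.

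Striatum did not stand out on the other Stmp1 probe set. On 1377890_at the means were 8.64 ± 0.28 in hippocampus, 8.60 ± 0.16 in striatum, 8.55 ± 0.25 in frontal cortex, 8.47 ± 0.33 in amygdala and 8.43 ± 0.35 in accumbens (SD, n = 12), and no neighbours in this order were called. Hippocampus over accumbens was the 1 pair called (0.21 ± 0.08, adjusted p = 0.0184, limma; 63.7% of all probe sets called), and 5 of the 10 pairs were called without the 7 arrays. The largest difference between neighbours, frontal cortex over amygdala, was 0.08 (95% interval -0.08 to 0.24). None of the 5 regions was called against the other 4 with all arrays as deposited; accumbens was nearest (-0.14 ± 0.06, adjusted p = 0.0515, limma) and striatum stood at 0.07 ± 0.06 (0.294). Accumbens was called after quantile normalisation (-0.15, 0.0279), with array medians centred (-0.15, 0.0382) and with no filter (-0.14, 0.0497). Without the 7 arrays accumbens was called as lower (-0.21 ± 0.04, 9.52e-05) and hippocampus (0.14 ± 0.05, 0.00721) and striatum (0.09 ± 0.04, 0.0383) as higher. Leaving out animal 9 alone also gave the accumbens call (-0.22, 4.93e-04).

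The difference between the 2 Stmp1 probe sets in this respect was also computed within animals, as a description added after the values had been seen. For each rat, striatum minus the mean of the other regions on 1377890_at was subtracted from the same quantity on 1388441_at. The result was -0.41 ± 0.14 (SD, n = 12 rats), from -0.62 to -0.25, and below 0 in all 12 rats. The value was -0.42 without the 7 arrays and -0.32 after quantile normalisation.

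Fam180a fell into a higher and a lower group of regions. The means were 8.69 ± 0.31 in frontal cortex, 8.66 ± 0.34 in accumbens, 8.62 ± 0.51 in amygdala, 8.10 ± 0.21 in striatum and 8.09 ± 0.40 in hippocampus (SD, n = 12). Hippocampus lay below the mean of the other regions by -0.43 ± 0.11 (adjusted p = 8.55e-04, limma) and striatum by -0.41 ± 0.11 (8.98e-04), ratios of 0.741 and 0.751. Frontal cortex was higher by 0.32 ± 0.11 (0.00941) and accumbens by 0.29 ± 0.11 (0.0215; without animal 1 it was 0.24 with an adjusted p of 0.0515). Amygdala, at 0.24 ± 0.11, had an adjusted p of 0.0712, but reached 0.36 ± 0.09 (9.86e-04) without the 7 arrays and was also called when animal 3 (0.00815), 8 (0.0391) or 12 (0.0434) alone was left out.

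Each of the 3 higher regions exceeded both lower ones in Fam180a, so 6 of the 10 pairs of regions were called (limma). Of all probe sets, 69.7% were called for frontal cortex against striatum, 43.5% for frontal cortex against hippocampus, 55.5% for accumbens against striatum, 63.7% for accumbens against hippocampus, 66.7% for amygdala against striatum and 25.7% for amygdala against hippocampus. The differences in Fam180a ran from 0.52 ± 0.14 (amygdala over striatum, adjusted p = 0.00106) to 0.61 ± 0.14 (frontal cortex over hippocampus, 3.19e-04, in 12 of 12 rats). Within the groups the neighbours did not differ beyond their spread. Frontal cortex over accumbens was 0.03 (95% interval -0.25 to 0.31), accumbens over amygdala 0.04 (-0.24 to 0.32; 58.9% of all probe sets called) and striatum over hippocampus 0.02 (-0.26 to 0.30).

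Zfp956 had small regional differences. The means were 8.61 ± 0.29 in amygdala, 8.54 ± 0.27 in hippocampus, 8.53 ± 0.19 in striatum, 8.48 ± 0.18 in frontal cortex and 8.42 ± 0.28 in accumbens (SD, n = 12, both lines together). Amygdala was above the other regions by 0.12 ± 0.04 (adjusted p = 0.0220, limma) and accumbens below them by -0.12 ± 0.04 (0.0150). Both were called without the 7 arrays too (0.16 ± 0.04, 0.00205; -0.15 ± 0.04, 0.00255). The amygdala call was lost without animal 1 (0.0519), 2 (0.0774), 5 (0.0551) or 10 (0.0748), and the accumbens call without animal 5 (0.0532). Of the 10 pairs of regions, amygdala over accumbens was called (0.20 ± 0.06, adjusted p = 0.00279), and no neighbours in the order were, the largest such difference being amygdala over hippocampus at 0.08 (95% interval -0.04 to 0.19). This difference was 0.14 and was called (adjusted p = 0.0464) without the 7 arrays, as were 4 of the 10 pairs in all.

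**Figure D3:**
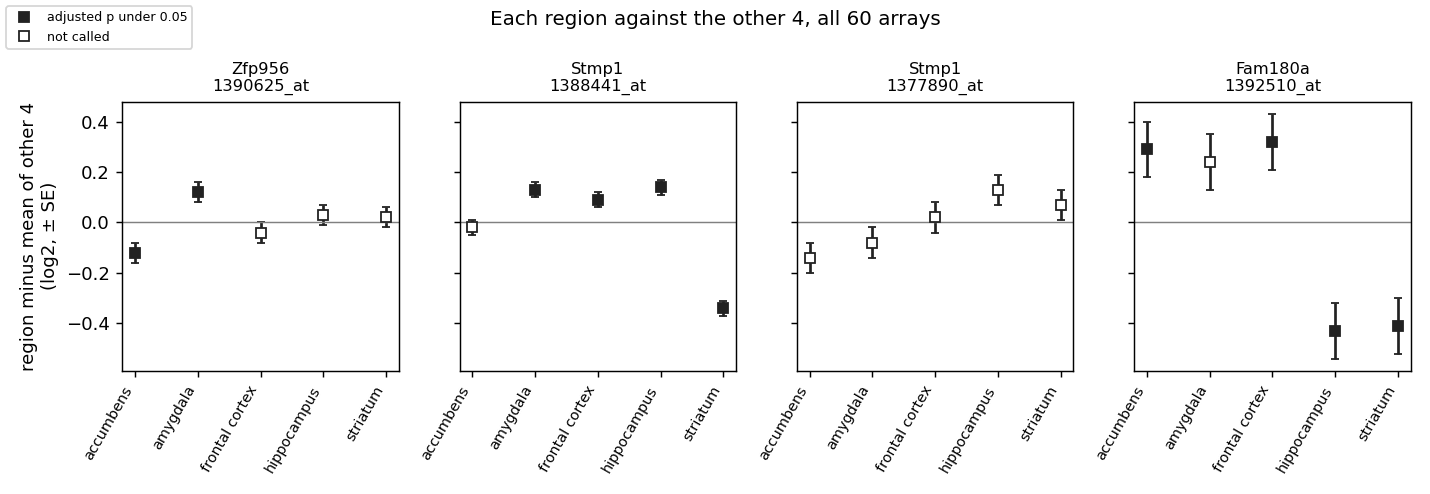
Each region minus the mean of the other 4 (log2, ± SE) for the 4 probe sets over all 60 arrays; filled squares are called at an adjusted p under 0.05 (limma). Stmp1 1388441_at drops to -0.34 in striatum while 1377890_at does not, and Fam180a is lower in hippocampus (-0.43) and striatum (-0.41).

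In total 10 of the 20 comparisons of a region with the others and 15 of the 40 pairs of regions were called over the 4 probe sets, where 47.8% to 69.6% of all probe sets were called for a region and 25.7% to 69.7% for a pair. The numbers were 14 and 22 without the 7 arrays.

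On chromosome 4 the 3 genes fall at 2 places. Among the 590 genes of this chromosome that were measured above the filter, Stmp1 is at place 155 and Fam180a at place 157, with the sulfate transporter gene Slc13a4 between them, and Zfp956 is at place 194. The 5 measured genes on either side of each, 21 genes besides the 3, were tested between the lines. Of these 3 were higher and 1 lower in the congenic line (limma on animal means, adjusted p under 0.05 over all 18625 probe sets, of which 0.123% were called). On the level of genes, 1.69% of the 590 genes of chromosome 4 and 0.0103% of 9752 genes elsewhere were called. The 590 genes include the 3 genes chosen on this contrast, with Stmp1 entered by its brighter probe set, 1388441_at. They also include the 21 neighbours, so the called neighbours count in the 1.69%.

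Near Stmp1 and Fam180a, Dgki, a diacylglycerol kinase, was higher by 0.25 ± 0.03 (adjusted p = 0.00247) and Bpgm, which makes the red cell metabolite bisphosphoglycerate, by 0.14 ± 0.02 (0.0416), and Wdr91, a gene of endosome maturation, was lower (-0.19 ± 0.03, 0.0172). Near Zfp956, Pdia4, an enzyme of protein folding, was higher by 0.21 ± 0.04 (0.0482). The call of Dgki held with each animal left out, and was lost when striatum was left out of the animal means (adjusted p = 0.0524). Those of the others were less stable: Wdr91 was called in 9 of 12 such fits (highest adjusted p 0.0611, without animal 12), Pdia4 in 2 (up to 0.171, without animal 7) and Bpgm in 1 (up to 0.152, without animal 11). Without the 7 arrays these 4 were called together with Cntnap2, a neurexin-like adhesion protein (-0.16, adjusted p = 0.00741).

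The other neighbours were not called between the lines with all arrays, and their values ran from -0.15 to 0.11. Slc13a4, the gene between Stmp1 and Fam180a, stood at -0.15 ± 0.09 (adjusted p = 0.911; -0.22 without the 7 arrays), Cnot4 before Stmp1 at 0.11 ± 0.03 (0.700), and Nup205, the nucleoporin gene before Stmp1, at 0.02 ± 0.03 (0.977). Around Zfp956 lies a run of zinc finger genes, and Zfp282, Zfp212, Zfp746 and Zfp467 there ran from -0.01 to 0.04. The next gene after it, Zfp777, had the highest value of the zinc finger neighbours, 0.11 ± 0.03 (0.725). Among all 11 measured genes of chromosome 4 named Zfp or Znf, Zfp956 left out, limma called 0 and 1 had an unadjusted p under 0.05, and their differences ran from -0.01 to 0.11 with a median of 0.01, against 0.00 over all 10378 measured genes.

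**Figure D4:**
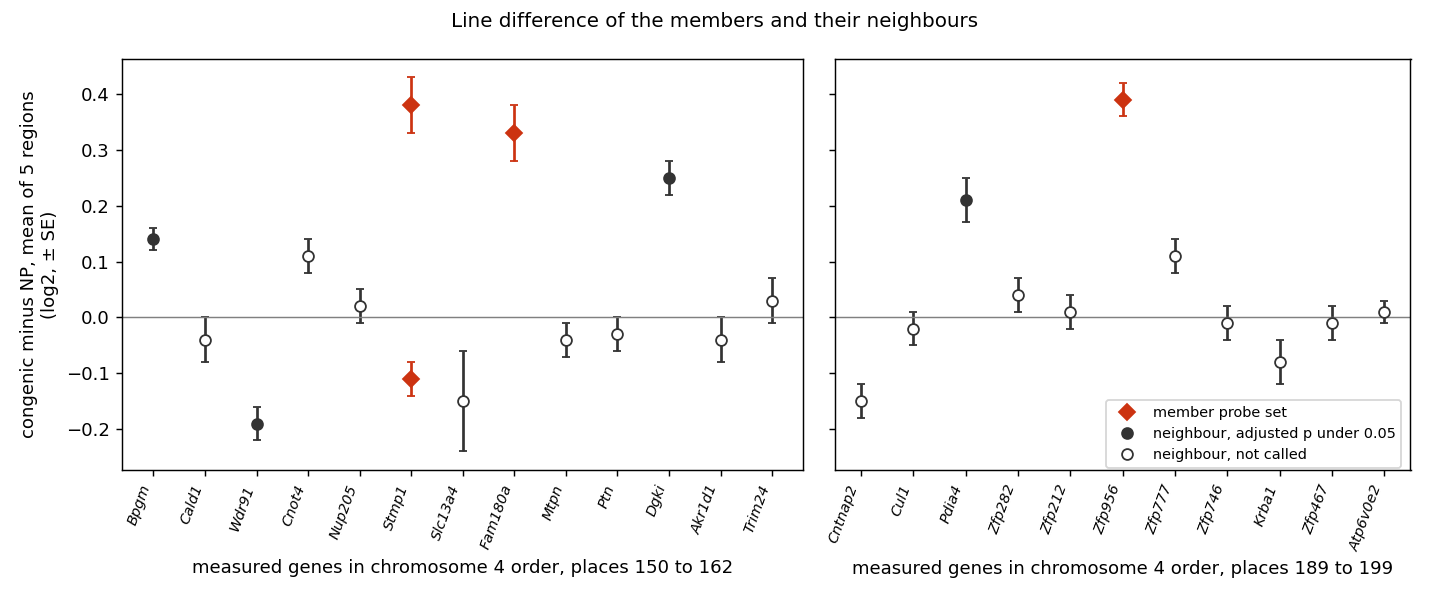
Congenic minus NP as the mean of 5 regions (log2, ± SE) for the 4 probe sets (diamonds) and their measured neighbours in gene order on chromosome 4; filled circles are neighbours called at an adjusted p under 0.05 (limma). The called neighbours are Bpgm, Wdr91, Dgki and Pdia4, and the zinc finger genes beside Zfp956 lie between -0.01 and 0.11.

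Genes of the pathways described above were counted in the same way, beside 0.106% of all 10378 measured genes called and 4.70% with an unadjusted p under 0.05, so few calls are the usual case for a list. Of the KRAB co-repressor genes (Trim28, Setdb1, heterochromatin proteins, DNA methyltransferases and others) 14 of 18 were measured, and limma called 0, with 0 at an unadjusted p under 0.05 and a median of 0.01. Of 38 subunit and assembly genes of respiratory complexes III and IV, 33 were measured, and limma called 0, with 1 at an unadjusted p under 0.05 and a median of -0.01. For mitochondrial fission, fusion and cristae genes (19 of 21 measured) limma called 0, with 2 at an unadjusted p under 0.05 and a median of -0.03. The median of all genes was 0.00. In the order of these lists, 7 of 14, 11 of 33 and 5 of 19 genes were higher in value in the congenic line. Of all 10378 genes 5235 were. Without the 7 arrays the counts were 11, 13 and 5, and 5187 of all genes. The lowest value of the fission, fusion and cristae list was that of Chchd3, a gene of chromosome 4 (-0.17 ± 0.03, adjusted p = 0.149, limma).

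Markers of cell types that the dissections could hold were measured in the same way, and limma called 0 genes between the lines in each list, against 0.106% of all genes. The 9 striatal projection genes were all lower in value in the congenic line (median -0.09, 3 with an unadjusted p under 0.05), and their mean level per animal ran from 10.87 to 11.12 in NP and from 10.72 to 10.91 in congenic rats. The median was -0.03 and 2 of the 9 were higher in value without the 7 arrays. The part of this list in the values of the 3 genes was not tested. Of the 20 genes of meninges and fibroblasts 12 were higher in value (median 0.02, 1 with an unadjusted p under 0.05; 10 of 20 and median -0.01 without the 7 arrays), and the animal means overlapped, from 9.73 to 10.00 in NP and from 9.82 to 9.98 in congenic rats. The cortical, hippocampal, amygdala, choroid plexus, oligodendrocyte, astrocyte and microglia lists had medians from -0.07 to 0.04.

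The meningeal and fibroblast list, which holds collagens, decorin, lumican and transporters of the meninges, moved with Fam180a across arrays. Centred on its mean over the regions, the list had a median of 0.64 in amygdala, 0.40 in accumbens and 0.10 in frontal cortex, the 3 regions of higher Fam180a, and of -0.23 in hippocampus and -0.72 in striatum. Over the 60 arrays, which share animals and regions, Pearson's r between Fam180a and the mean of the list was 0.75. After the mean of each region and line had been subtracted it was 0.82, and 0.73 on the 53 arrays that do not stand apart. Within accumbens the list ran from -0.92 to 0.72 (median 0.42) in NP and from 0.34 to 0.68 (median 0.39) in congenic rats. In amygdala the list ran from -0.47 to 0.75 (median 0.51) in NP and from -0.89 to 1.19 (median 0.73) in congenic rats. The part of these cells in the regional pattern of Fam180a and in its difference between the lines was not tested.

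**Figure D5:**
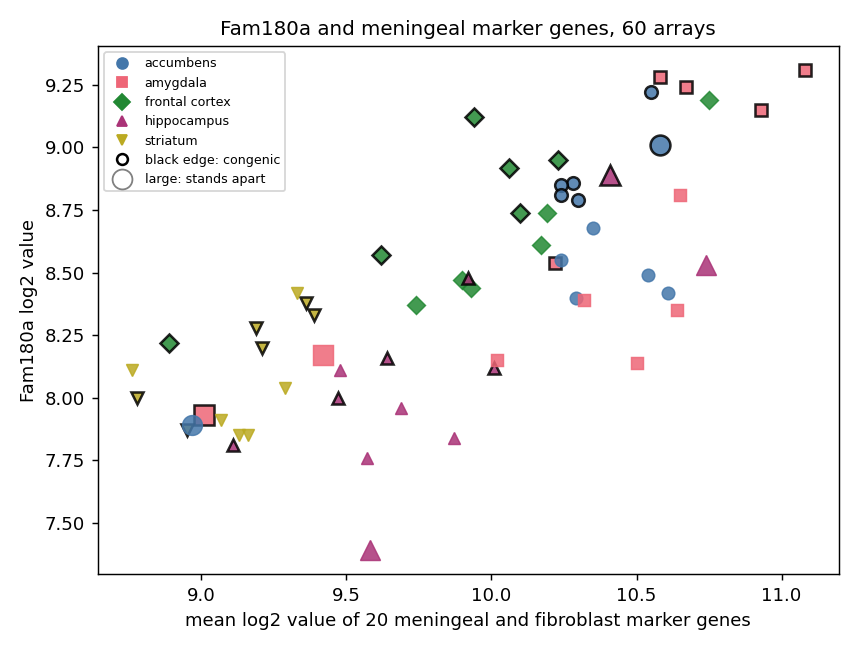
Fam180a (log2, vertical) against the mean log2 value of 20 meningeal and fibroblast marker genes (horizontal) on 60 arrays; symbols give the region, black edges the congenic line and large symbols the arrays that stand apart. Values rise together (r = 0.75), with striatum at the lower left and most congenic amygdala arrays at the upper right.

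The genes with the most similar profile over the 60 arrays were found for each probe set as the 5 highest Pearson correlations, given here with no test. For Fam180a they were Gjb2 (0.82), Col3a1 (0.81), Timp1 (0.81), Col1a2 (0.80) and Gng11 (0.79). The collagen genes Col3a1 and Col1a2 are also on the marker list. For Stmp1 1388441_at they were Slc25a20 (0.84), Aldh3a2 (0.84), Chchd3 (0.83), Tbc1d22al (0.83) and Pxmp2 (0.83). For 1377890_at the nearest were Ago1 (0.69), Zfp956 (0.68) and Cnot4 (0.66), followed by Tbc1d13 (0.66) and Nherf2 (0.63). Zfp956 had lower correlations throughout, led by Cnot4 (0.58) and Bpgm (0.56), both near Stmp1 on chromosome 4, then Sgsm1, Pom121 and Repin1 (0.52 each).

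These profiles include the difference between the lines, which the genes were chosen for. After the mean of each region and line had been subtracted, 0 of the 5 most similar genes of each probe set lay on chromosome 4, which holds 5.69% of the measured genes; before it 3 did for Zfp956, 1 for 1388441_at, and 2 each for 1377890_at and Fam180a. On the 53 arrays 1 did after the subtraction for Zfp956 and for 1388441_at, and 0 for the others. For 1388441_at the genes nearest over the 60 arrays after the subtraction were Ctnna1 (0.81), Igfbp7 (0.76), Eml3 (0.75), Fam43a (0.74) and Plod1 (0.73). None of them was among its 5 nearest before it. Between the probe sets themselves, the 2 of Stmp1 then correlated at 0.49 (0.43 on 53 arrays). The other pairs lay between -0.18 and 0.27, among them 0.27 for Zfp956 with 1377890_at, which was 0.03 on 53 arrays.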

How the data were processed

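Total RNA of single rats was labelled with biotin and hybridised to Affymetrix arrays, per the labels' protocols. The deposited values are log2 probe set signals; the authors' background correction and normalisation are not given in the sources used here, and the values were used as deposited. After 57 control probe sets were left out, the filter kept those whose mean reached the 40th percentile of all means (7.68). Differences were fitted with limma 3.58.1 in R 4.3.3 (with the data.table package, version 1.17.8) with Benjamini-Hochberg adjustment over the 18625 probe sets kept, on animal means for the lines and with the animal as a fixed block for the regions; the script was tested on simulated data. Figures were drawn with matplotlib 3.10.9 (numpy 2.4.6, Python 3.11.15). Regions are paired because the same animal number marks the same rat in the labels; animals of different lines are not paired. The annotation gave 1 symbol for 20826 probe sets and several for 436, and did not list 9780. Named genes are all probe sets of the 3 genes, the 5 measured genes on either side (1 probe set a gene, the brightest), called genes of the lists and the 5 most similar genes. The members and lists were chosen with earlier results of these data known. The number of arrays limits the precision. Alternatives were other normalisations, filters, variance models and blocks, and leaving out arrays, animals or regions.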

Additional observations from a re-analysis of the deposited data

Results flagged for a closer look

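Of 48 groups of 6 values, 7 held a value at one end whose gap to its neighbour, as a share of the group's range, passed Dixon's 95% limit; chance alone flags about 1 in 20 groups. Of these 7, 4 came from arrays that stand apart: congenic animal 9 in accumbens for Zfp956 (8.91) and Stmp1 1377890_at (9.42), NP animal 11 in hippocampus for Stmp1 1377890_at (8.96), and NP animal 8 in accumbens for Fam180a (7.89). The others were NP animal 8 on Stmp1 1388441_at, in amygdala (10.90) and in its mean over the regions (10.75), and NP animal 11 on Fam180a in amygdala (8.81).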

How the results depend on the processing

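The line differences of Zfp956, Stmp1 1377890_at and Fam180a kept their sign in every region and setting run; that of Stmp1 1388441_at in amygdala ran from -0.063 to 0.0040 with single animals left out. Small regional differences changed sign; the cause was not tested. Without the 7 arrays these were hippocampus against the other regions (-0.015) and hippocampus over striatum (-0.038) for Zfp956, hippocampus over amygdala for 1388441_at (-0.011), and frontal cortex over accumbens (-0.0057) and accumbens over amygdala (-0.041) for Fam180a. After quantile normalisation they were hippocampus over striatum for Zfp956 (-0.0042), accumbens against the others (0.098), hippocampus over amygdala (-0.0045) and frontal cortex over accumbens (-0.074) for 1388441_at, and striatum over hippocampus for Fam180a (-0.026). With single animals left out, Zfp956 ran from -0.0070 to 0.054 for hippocampus and from -0.015 to 0.043 for striatum against the others and from -0.018 to 0.032 for hippocampus over striatum; 1377890_at from -0.012 to 0.056 for frontal cortex against the others; 1388441_at from -0.0051 to 0.025 for hippocampus over amygdala; and Fam180a from -0.043 to 0.12 for frontal cortex over accumbens, from -0.040 to 0.087 for accumbens over amygdala and from -0.076 to 0.074 for striatum over hippocampus. The 60th percentile filter (8.93) kept Stmp1 1388441_at alone of the 4, which left 0 members higher, 1 regional effect, 4 regions against the others and 7 pairs; 2 listed genes were called, against 4 in the fit reported, 5 after quantile normalisation or without the 7 arrays, and 3 with a variance trend, where Pdia4 lost its call (adjusted p 0.0536, limma). The 4 became 2 with the mean taken without amygdala or frontal cortex, 1 without hippocampus or striatum, and 1 to 4 with single animals left out. With single animals left out, regional effects ran from 2 to 4, regions against the others from 8 to 12 and pairs from 13 to 18. With no replicate block, as with the animal as a random block, 3 regional effects, 10 regions against the others and 14 pairs were called, against 3, 10 and 15 with the animal as a fixed block; frontal cortex over accumbens on 1388441_at lost its call in both (adjusted p 0.0533 with the random block, limma).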

Other observations

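Fam180a was compared with each marker list after the mean of each region and line had been subtracted, as a description over 60 arrays that share animals. Beside the meningeal and fibroblast list, its largest correlations with markers were with the hippocampal list (-0.61) and the amygdala and striatal projection lists (0.47 each), which became 0.09, -0.12 and -0.16 on the 53 arrays that do not stand apart. The 21 neighbours on chromosome 4 share the gene Slc13a4 with the meningeal and fibroblast list. With the mean of these neighbours Fam180a correlated at 0.61, and at 0.50 on the 53 arrays. The individual genes nearest to it were then Timp2 (0.82), Ptgds, Colec12, Slc6a20a and Ogn (0.81 each), and on the 53 arrays Dcn (0.80) and Lum (0.76), which encode the matrix proteoglycans decorin and lumican, came first.

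Stmp1 1388441_at correlated at 0.65 with the mean of the 33 complex III and IV genes over the 60 arrays and at -0.59 with the 9 striatal projection genes. The first value was not particular to that list. It was 0.62 with the KRAB co-repressor list, 0.62 with the fission, fusion and cristae list and 0.57 with the astrocyte list. After region and line means had been subtracted, the complex III and IV and striatal projection values were 0.26 and 0.08, and 0.04 and 0.18 on the 53 arrays. Other lists were then larger in size over the 60 arrays, at 0.44 for the neighbours, 0.44 for the chromosome 4 zinc finger genes and -0.42 for the cortical genes. For 1377890_at the complex III and IV value was 0.02 before subtraction, 0.20 after it and -0.10 after it on the 53 arrays. Zfp956 correlated at 0.26 with the 14 KRAB co-repressor genes before subtraction, at 0.34 after it and at -0.01 after it on the 53 arrays. Its values before and after subtraction were alike with the chromosome 4 zinc finger genes (0.27 and 0.32) and the neighbours (0.25 and 0.35). Fam180a correlated at 0.26 and 0.46 with the same KRAB list, so these values were not particular to Zfp956.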
